A study of Homo sapiens with 12 samples.

Results

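The HOX cluster genes are the protein-coding genes named HOXA, HOXB, HOXC or HOXD with a paralogue number, 39 of the 19974 protein-coding genes on chromosomes 1 to 22 and X of the RefSeq annotation (GRCh38). They were chosen by name alone. HOXA (chromosome 7) holds 11 of them, HOXB (chromosome 17) 10, HOXC (chromosome 12) 9 and HOXD (chromosome 2) 9. Open chromatin had been mapped by ATAC-seq (cutting of accessible DNA by the Tn5 transposase) in U2OS, a human osteosarcoma cell line. The 12 samples form 6 groups of 2, and the deposited peak lists number 9. In the FOXA2 set each sample had its own list: cells labelled wild type, cells carrying Flag-tagged full-length FOXA2, and cells carrying FOXA2 without its CTD (C-terminal domain). In the SOX2 set each group had 1 list: a second wild type whose label also names the SOX2 cell line, full-length SOX2, and a fusion of SOX2 to the FOXA2 CTD. The construct cells used the Tet-on system and had received, per their treatment field, 500 ng/ml doxycycline over 4 days. The wild-type samples have an empty treatment field but carry the same protocol text, so their doxycycline status is unknown. The labels do not say how many clones stand behind a line or whether the second wild type was parental U2OS.

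HOX proteins are homeodomain transcription factors that give cells their position along the body axis. Within a cluster, gene order follows the order of expression along that axis, with group 1 genes active toward the head and group 13 genes toward the tail and the ends of the limbs. Whole stretches of a silent cluster are kept closed by Polycomb proteins, and adult cells and tumours often keep the HOX pattern of their tissue of origin. FOXA2 is a forkhead pioneer factor of endoderm and SOX2 a factor of stem cells and neural tissue, both able to bind sites in closed chromatin.

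The lists of the FOXA2 set held 19862 to 161136 peaks and those of the SOX2 set 48142 to 75544 at a global IDR (irreproducible discovery rate) of at most 0.05. Their lowest −log10 p values ranged from 2.01 to 6.15, so a start without a peak in a short or strict list is not shown to be closed. Wild type replicate 2 and full-length FOXA2 replicate 2 had no mitochondrial peaks and a stricter threshold, while each of the other 4 libraries there had 2 of them, and the 2 kinds of list are treated as batches. The 8 osteoblast and mesenchymal markers had a peak in the gene body plus 5 kb in 4 to 8 of 8 cases in every list. Over all protein-coding genes that share ranged from 48.6% to 89.5% between lists, and a difference of the markers from it was not tested. In the FOXA2 gene itself (chr20:22580998-22585490) both libraries labelled wild type had a peak, at chr20:22581848-22582527 with a fold enrichment of 5.19 and at chr20:22581827-22582860 with one of 14.7. The 4 construct libraries had a peak at the same place, of 5.76-fold, 44.3-fold, 6.94-fold and 7.07-fold. In the SOX2 set that place was called for the fusion alone, at chr20:22581797-22582528. The FOXA2 peak therefore does not separate the libraries labelled wild type from the construct libraries.

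Upstream sequences of 5 HOX genes are shown because their starts differ in the lists as described further on. Each is the 250 bases before the RefSeq start on GRCh38, 5′ to 3′ on the gene's strand. The HOXD1 start was called in all 9 lists, the HOXD8 start in 7, the HOXA9 start in 5 and the HOXD4 start in none, and capitals mark CpG dinucleotides. The windows are chr2:176188418-176188667 (plus strand) for HOXD1, chr2:176129455-176129704 (plus) for HOXD8, chr7:27165538-27165787 (minus) for HOXA9 and chr2:176151300-176151549 (plus) for HOXD4.
HOXD1: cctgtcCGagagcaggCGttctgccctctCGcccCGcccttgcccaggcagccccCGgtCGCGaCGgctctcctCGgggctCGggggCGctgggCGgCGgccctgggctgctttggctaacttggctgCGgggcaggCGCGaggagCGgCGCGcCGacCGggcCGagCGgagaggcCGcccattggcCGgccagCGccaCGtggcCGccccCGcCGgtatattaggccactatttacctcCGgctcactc
HOXD8: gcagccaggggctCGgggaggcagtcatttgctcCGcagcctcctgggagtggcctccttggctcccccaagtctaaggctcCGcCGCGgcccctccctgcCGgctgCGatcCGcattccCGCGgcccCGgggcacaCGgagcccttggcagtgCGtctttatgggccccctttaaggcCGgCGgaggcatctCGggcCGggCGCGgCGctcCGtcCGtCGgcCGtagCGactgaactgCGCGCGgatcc
HOXA9: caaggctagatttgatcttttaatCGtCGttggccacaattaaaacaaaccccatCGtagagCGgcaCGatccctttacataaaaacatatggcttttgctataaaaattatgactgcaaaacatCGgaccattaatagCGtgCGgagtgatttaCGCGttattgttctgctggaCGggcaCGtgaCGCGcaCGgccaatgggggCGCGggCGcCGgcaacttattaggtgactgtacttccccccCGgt
HOXD4: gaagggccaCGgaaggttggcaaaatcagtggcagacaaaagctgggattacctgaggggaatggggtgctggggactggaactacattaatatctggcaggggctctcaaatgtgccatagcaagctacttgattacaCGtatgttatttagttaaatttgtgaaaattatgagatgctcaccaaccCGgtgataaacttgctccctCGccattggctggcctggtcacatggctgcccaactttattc
These windows hold 31, 28, 20 and 4 CpG dinucleotides in that order. Other HOX windows did not follow this order. The same stretch held 27 at HOXA6, whose start was called in 0 lists, and 11 at HOXA11, called in 8. HOXD4 had the fewest. Of the 39 genes, 20 matched the RefSeq promoter table, whose windows run from 250 bases before to 50 after the start. The median CpG number per window was 22.5 over these 20 and 22 over all 15813 protein-coding windows. It was 34 in the 5 HOX windows whose start was called in 7 or more lists, 21 in the 5 called in 1 to 6 lists and 21 in the 10 called in none. The 5 called in 1 to 6 lists include HOXC4 and HOXC5, whose windows are the same sequence. The split at 7 lists was made after the values were seen, and the ranges overlapped, at 13 to 44, 15 to 31 and 4 to 29 CpGs.

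Of the 20 HOX windows, those of HOXC4 and HOXC5 held the forkhead letters TGTTTAC (2.62% of all windows, either strand) and TGTTTGC (3.16%). HOXC4, HOXC5 and HOXC6 share 1 annotated start, at chr12:54016888, so both matches come from 1 sequence. In it, capitals mark the matches, which begin 195 bases before the start on the minus strand and 134 bases before it on the plus strand.
HOXC4: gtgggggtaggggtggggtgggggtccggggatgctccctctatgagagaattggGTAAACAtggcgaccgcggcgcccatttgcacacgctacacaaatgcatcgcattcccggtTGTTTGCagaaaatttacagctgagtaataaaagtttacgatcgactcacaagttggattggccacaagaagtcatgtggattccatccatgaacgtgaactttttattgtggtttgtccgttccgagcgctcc
This start had no peak within 500 bp in either library of full-length FOXA2. It had one in 1 library of CTD-deleted FOXA2, at chr12:54016901-54017128 with a fold of 3.44, and in the SOX2 list. The missing calls turn on the 500 bp window. A region 534 bp from this start, chr12:54017422-54018663, was called in all 6 lists of the FOXA2 set. Its folds were 7.2 and 5.61 in the libraries labelled wild type and 3.64 and 8.86 with full-length FOXA2. The SOX letters ACAAAG were in 5 of 20 HOX windows (HOXA10, HOXA11, HOXB1, HOXD10 and HOXD12) against 12.8% of all, the letters ACAATG in 0 against 7.93%, and TGANTCA, read by AP-1, in 0 against 5.75%. The CTCF motif was searched by its core letters and matched at HOXA10 alone, against 2.69% of all windows.

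HOX starts were called less often than the starts of other protein-coding genes in all 9 lists. A start counted as called with a peak within 500 bp of it. In the libraries labelled wild type, 8 and 7 of the 39 HOX starts were called, against 35% and 33.6% of all 15812 starts. With full-length FOXA2 the numbers were 19 and 17 of 39 (background 59.6% and 53.8%), and with CTD-deleted FOXA2 11 and 13 (background 45.9% and 60%). In the SOX2 set they were 16 of 39 for the wild type (background 53.8%), 16 for SOX2 (56.1%) and 14 for the fusion (50.8%). HOXC4, HOXC5 and HOXC6 share 1 start, so 1 peak there counts for each of these genes. Over the 37 distinct HOX starts, SOX2 called 14 and CTD-deleted FOXA2 replicate 1 called 9. The HOX share was also below the background in 9 of 9 lists with windows of 2 kb, with equal numbers of peaks per list, and over the 20 starts of the promoter table alone, a check added after the data were seen. The 19 other starts were set at the 5′ end of the annotated gene, where a longer minor transcript can place them away from the start in use.

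**Figure D1:**
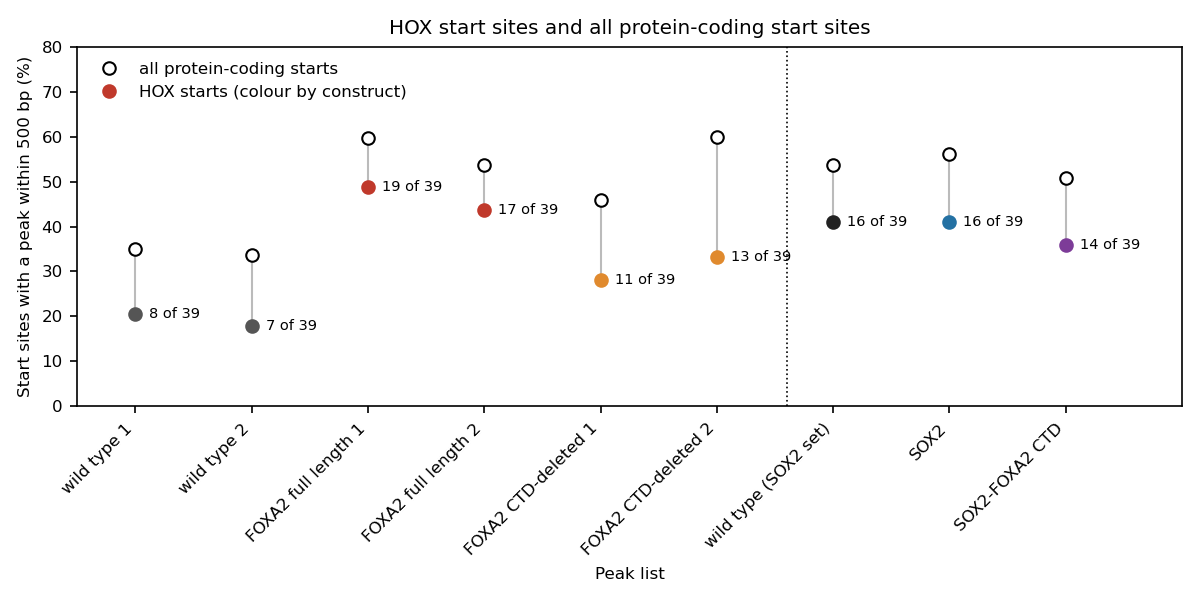
Share of start sites with a peak within 500 bp (vertical axis, percent) in each of the 9 peak lists (horizontal axis), with filled points for the 39 HOX starts and open points for all protein-coding starts. In every list the filled point lies below the open one, from 17.9% of HOX starts in wild type replicate 2 to 48.7% in full-length FOXA2 replicate 1.

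Over the gene body plus 5 kb on each side the HOX share was nearer that of all genes than at starts in 8 of the 9 lists, the exception being the fusion. The median length of the HOX genes was 3785 bp against 24170.5 bp over all genes. In the libraries labelled wild type 17 and 17 of 39 genes had a peak in that wider window (background 51.3% and 48.6%). The counts were 37 and 30 with full-length FOXA2 (background 89.5% and 73.7%) and 25 and 31 with CTD-deleted FOXA2 (background 76% and 88.5%). They were 33 for the second wild type (75.5%), 30 for SOX2 (78.6%) and 23 for the fusion (76.9%). The HOX share was above that of all genes in 3 lists, both of full-length FOXA2 and the second wild type, and below it in 6. This depended on the window and the list length. In the gene body alone it was below that of all genes in 9 of 9 lists, with 24 and 22 genes for full-length FOXA2 (background 79.1% and 65.7%) and 21 for the second wild type (68.3%). With equal numbers of peaks it was above in 2 lists, and full-length FOXA2 replicate 1 had 9 genes (background 46.4%). Windows of neighbouring HOX genes overlap, so genes can share a peak.

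Between 0 and 9 of the lists called a given HOX start. The starts of HOXA5, a lung and cervical patterning gene, and HOXD1 were called in all 9 lists, against 20.7% of all starts. Among the starts called in 8 were those of HOXA4, HOXA11, a forelimb and uterine gene, HOXA13 and HOXC13, genes of limb ends and of hair and nails, and HOXC10. The list that missed HOXC13 was SOX2, HOXA13 and HOXC10 were missed in CTD-deleted FOXA2 replicate 1, HOXA4 in wild type replicate 2 and HOXA11 in wild type replicate 1. At the other end, 14 starts had no peak in any list, against 30.5% of all starts: HOXA2, HOXA3, HOXA6, HOXB1, HOXB3, HOXB4, HOXB8, HOXC12, HOXD3, HOXD4, HOXD10, HOXD11, HOXD12 and HOXD13. Of these, HOXB4 and HOXD4 had no peak even in the gene body plus 5 kb in any of the 9 lists. HOXA3 and HOXA6 had one there in all 9, as did HOXA5, HOXA7 and HOXD1.

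**Figure D2:**
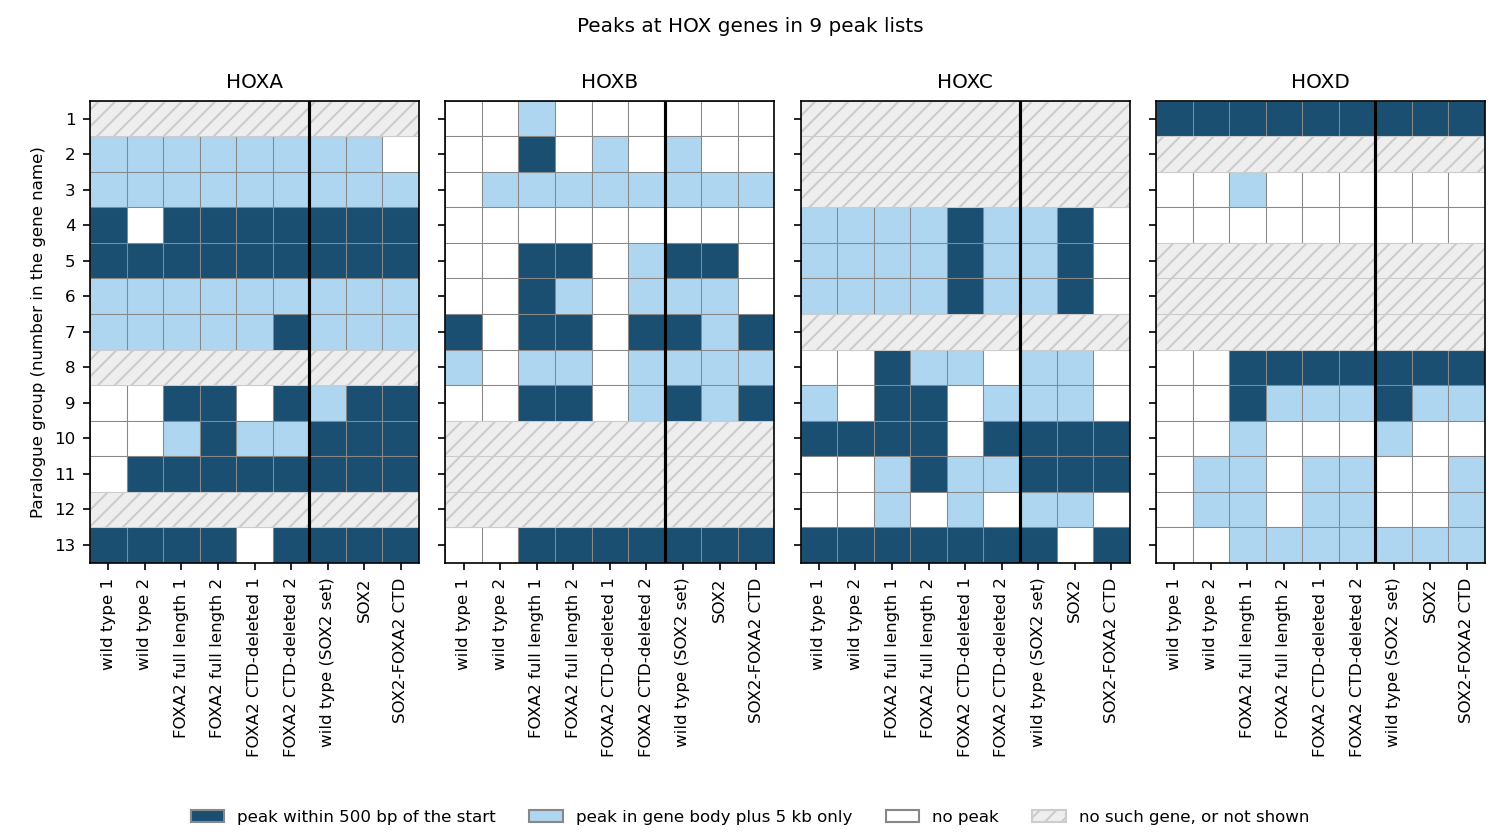
Calls at HOX genes in the 9 peak lists, one panel per cluster, with the paralogue group on the vertical axis and the lists on the horizontal axis; the thick line separates the FOXA2 set from the SOX2 set, and hatched rows have no such gene or are not shown. Dark cells run across nearly all lists at HOXA4, HOXA5, HOXA13, HOXC10, HOXC13 and HOXD1, while HOXB4 and HOXD4 are white throughout.

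At the 2 starts called in every list, the groups of the FOXA2 set overlapped in fold enrichment. At HOXA5 the deposited fold was 6.13 and 5.61 in the libraries labelled wild type, 4.39 and 11.3 with full-length FOXA2, and 4.17 and 5.76 with CTD-deleted FOXA2. At HOXD1 it was 5.24 and 4.68, then 3.51 and 7.84, then 4.34 and 5.51. Full-length FOXA2 replicate 2 was the highest of the 6 libraries at each, and full-length FOXA2 replicate 1 the lowest at HOXD1. In the SOX2 set the HOXD1 peak (chr2:176187651-176189126 in the wild type) had a −log10 p of 25.9 for the wild type, 25.6 for SOX2 and 13.1 for the fusion, and HOXA5 had 19.6, 22.3 and 14.3. The fusion had the lowest value at both.

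By paralogue group, the calls did not follow 1 order in all lists. Of the 8 starts of groups 1 to 3, 2 were called in 7 of the 9 lists, 3 in full-length FOXA2 replicate 1 and 1 in the fusion. Of the 16 starts of groups 9 to 13, the libraries labelled wild type called 3 and 4, full-length FOXA2 9 and 10, CTD-deleted FOXA2 3 and 6, the second wild type 9, SOX2 7 and the fusion 9. The share of groups 9 to 13 was above that of groups 1 to 3 in 6 lists, below it in 2 and equal in 1. Of the 15 starts of groups 4 to 8, between 1 (wild type replicate 2) and 7 (full-length FOXA2 replicate 1 and SOX2) were called. By cluster, HOXA had 4 to 7 of its 11 starts called in a list, HOXB 0 to 6 of 10, HOXC 2 to 5 of 9 and HOXD 1 to 3 of 9. For SOX2 and CTD-deleted FOXA2 replicate 1, the counts of groups 4 to 8 and of HOXC include the 1 start shared by HOXC4, HOXC5 and HOXC6.

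With full-length FOXA2, 6 HOX starts were called in both construct libraries and in neither library labelled wild type: HOXA9, HOXB5, HOXB9, HOXB13, HOXC9 and HOXD8. Over all starts the same rule called 11.6%, and 6 of 39 is near that share. No HOX start was lost by the opposite rule, against 0.00632% of all starts. Of the 6, HOXA9, HOXB9, HOXB13 and HOXC9 belong to the posterior groups, which pattern the trunk, limbs and genital tract, and HOXA9 is also a gene of blood progenitors. Over gene bodies plus 5 kb, 11 HOX genes were gained (background 15.8%) and 0 lost (background 0.00501%). The 11 were those 6 without HOXC9, and HOXA10, HOXB6, HOXC8, HOXC11, HOXD9 and HOXD13.

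By −log10 p, the peaks at these 6 starts ranked between percentiles 56.9 and 94.3 of the list of full-length FOXA2 replicate 1 and between 20.4 and 78.5 of that of replicate 2. HOXA9 had no peak in either library labelled wild type, folds of 3.17 (chr7:27165232-27165858) and 8.86 (chr7:27165424-27165864) with full-length FOXA2, and 3.76 in 1 of the 2 CTD-deleted libraries. HOXC9 had folds of 3.94 and 8.86 with full-length FOXA2 (chr12:53999658-54000420) and no peak in the other 4 libraries of the set. HOXB5 had 3.31 and 6.14, and HOXB9 5.43 and 5.11, with full-length FOXA2 and no peak in the other 4 libraries. HOXD8, a trunk gene whose upstream sequence is given above, had 4.17 and 6.48 with full-length FOXA2 and 3.81 and 3.18 with CTD-deleted FOXA2. HOXB13, a gene of the prostate and hindgut, had 3.88 and 5.45, then 2.29 and 4.26. The 2.29-fold peak (chr17:48729199-48729398) lay apart from the others and ranked in the lowest 0.803% of its list.

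**Figure D3:**
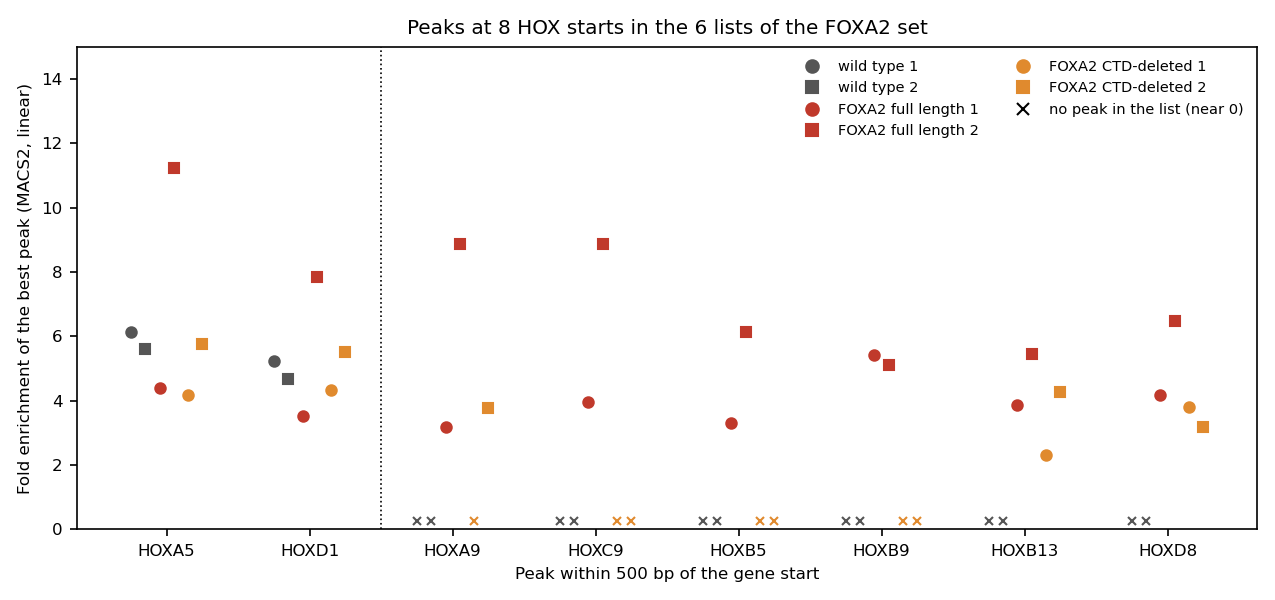
Deposited fold enrichment (linear, vertical axis) of the strongest peak within 500 bp of 8 HOX starts (horizontal axis) in the 6 lists of the FOXA2 set, with circles for replicate 1 and squares for replicate 2. Crosses near 0 mark lists without a peak; left of the dotted line all 6 lists had one, and right of it the libraries labelled wild type had none.

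The second wild type had a peak at 4 of these 6 starts. HOXB5, HOXB9, HOXB13 and HOXD8 were called there at −log10 p values of 8.43, 6.75, 11.3 and 11.02. HOXA9 and HOXC9 had entries in that list which failed the IDR limit, at IDR values of 0.159 and 0.182. The sets were called in different ways, and the gain rule compares each construct with the wild type of its own set.

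Across the cluster regions, meaning all merged peaks from 100 kb before to 100 kb after each cluster, full-length FOXA2 gained 19 of 179 (10.6%, background 9.06%) and lost 0 (background 0.155%). Of the 19, 15 lay between the first and last gene of a cluster, where 88 of the 179 regions lay. Of all peaks in the clusters and flanks, 56 of 111 in full-length FOXA2 replicate 1 and 44 of 56 in replicate 2 lay there. Of the 19 regions, HOXA held 6, HOXB 7, HOXC 3 and HOXD 3. A HOX start was within 500 bp of 8 of the 19 (42.1%), against 25 of the 179 cluster regions. Of all regions gained with that construct 6.8% were within 500 bp of any protein-coding start. The windows hold 39 HOX starts in 1328 kb, so this share, and those below for the other constructs, are not matched for gene density. With the same number of peaks from each list, 19862, 1 of 34 cluster regions was gained (background 7.52%) and 1 lost (4.30%), and at the common threshold of −log10 p 5.43 the gain was 11 of 69 (background 15.1%). Without replicate 2 of full-length FOXA2 84 of the 179 were gained (background 48.3%) and without its replicate 1 30 (12.4%). Within the batch with mitochondrial peaks 90 were gained (background 51.4%) and within the other 37 (13.6%), with 1 lost in each (1.55% and 1.84%). In the batch with mitochondrial peaks the wild-type list was the stricter, with a lowest −log10 p of 3.44 against 2.01 for full-length FOXA2. In the other batch these were 5.43 and 5.22.

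The strongest of these regions, by the lower of its within-list percentiles, was chr17:48686510-48687429, inside the noncoding gene LINC02086 and 41321 bp from the HOXB13 start. Its fold was 5.65 and 11.3 with full-length FOXA2 and 5.20 and 5.23 with CTD-deleted FOXA2, with no peak in the libraries labelled wild type and none in the 3 lists of the SOX2 set. The second, chr7:27186800-27187284 in HOXA11-AS, an antisense gene 1568 bp from the HOXA11 start, had 4.05 and 10.6, and 3.44 in 1 CTD-deleted library. The third was the HOXC9 start region. Of the 19 regions, 7 (36.8%) overlapped a peak of the second wild type, against 20.9% of all regions gained with full-length FOXA2. A SOX2 peak overlapped 10 of them (52.6%, background 26.6%) and a fusion peak 9 (47.4%, background 26.0%). No peak of the SOX2 set overlapped 8, and the share of all gained regions without such a peak was not counted.

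CTD-deleted FOXA2 gained 2 HOX starts, HOXB13 and HOXD8 (background 7.41%), and lost none (0.0632%). At HOXB13 its 2 libraries had peaks that did not overlap, and no region at that start was gained. Over gene bodies plus 5 kb CTD-deleted FOXA2 gained 6 (background 17%), HOXA10, HOXB13, HOXC11, HOXD8, HOXD9 and HOXD13. Each of these was gained with full-length FOXA2 as well, and CTD-deleted FOXA2 lost 0 (background 0.01%). Both constructs were set against the same wild-type libraries. It gained 16 of the 179 cluster regions (8.94%, background 8.72%) and lost 0 (background 0.0576%). Of the 16, 7 lay between the first and last gene and 9 in the flanks, and 1 (6.25%) was within 500 bp of a HOX start, that of HOXD8. Of all regions gained with this construct 4.59% were within 500 bp of any protein-coding start. At HOXA, 1 of the 5 gained regions was inside the cluster, against 6 of 6 with full-length FOXA2. The lists differed in this way before any gain was called. Of all peaks in the clusters and flanks, 29 of 52 and 55 of 99 lay between the first and last gene in the CTD-deleted lists. In the full-length lists 56 of 111 and 44 of 56 did. A difference in place between the constructs was not tested. Without replicate 1 of CTD-deleted FOXA2 70 regions were gained (background 42.4%) and without its replicate 2 33 (19.5%). Taking 19862 peaks per list left 2 of 34 gained (background 5.74%) and 2 lost (3.36%), and the common threshold 2 of 69 (7.63%) and 1 (0.982%). Within the batch with mitochondrial peaks 22 were gained (background 11.4%) and 1 lost (0.752%), and the other batch holds no CTD-deleted library. In that batch with mitochondrial peaks the wild-type list was again the stricter, with a lowest −log10 p of 3.44 against 2.01 in both CTD-deleted lists.

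**Figure D4:**
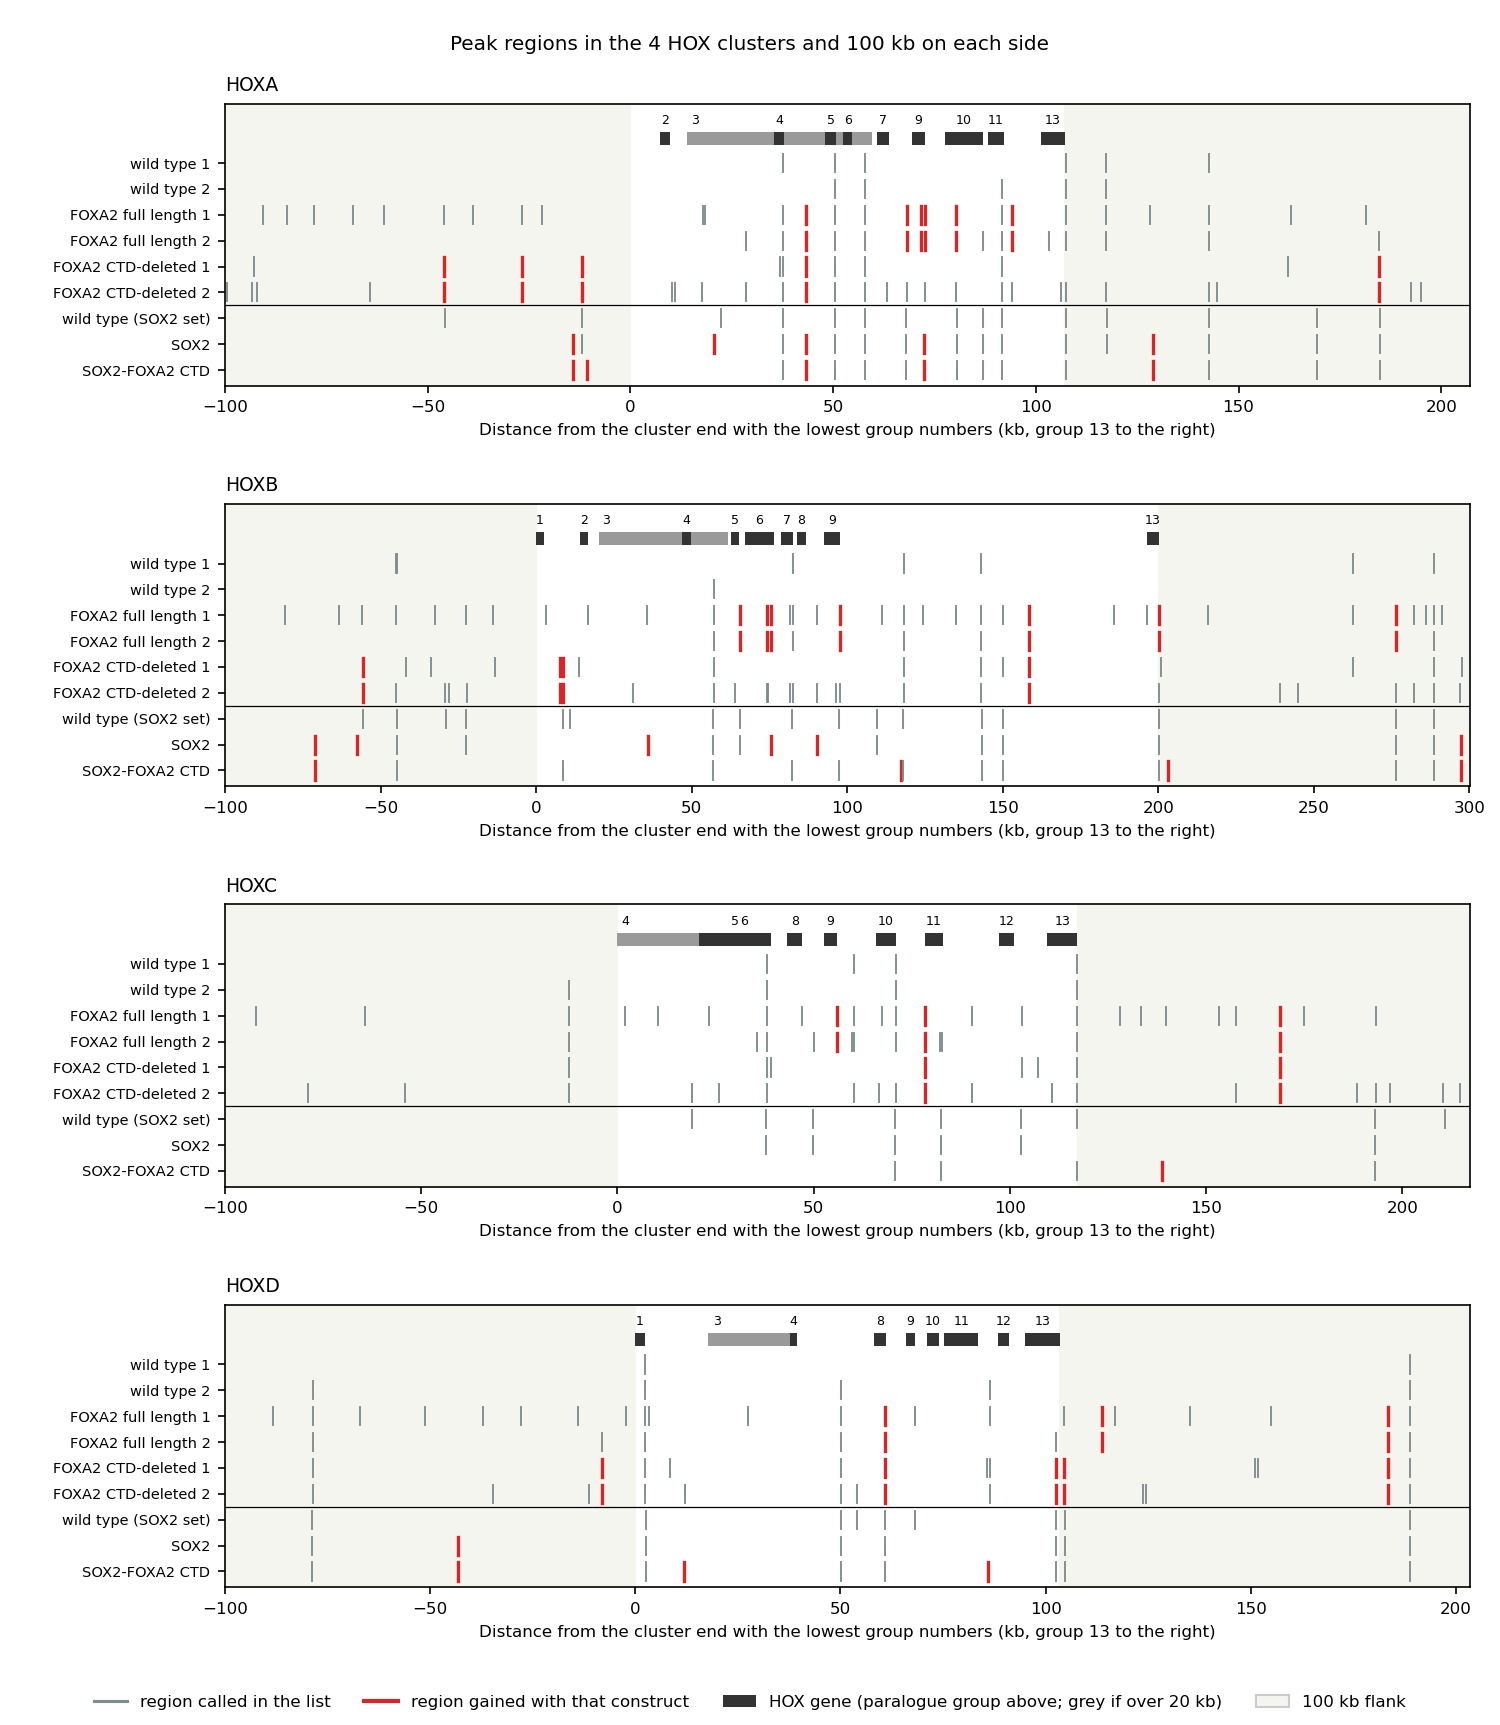
Merged regions called in each of the 9 lists along the 4 clusters and 100 kb on each side (horizontal axis, kb from the cluster end with the lowest group numbers), with red marks for regions gained with that row's construct; 1 gene and the regions within 5 kb of its start are not drawn. The red marks of full-length FOXA2 lie between the first and last gene in 15 of 19 cases, and those of CTD-deleted FOXA2 in 7 of 16. Of all peaks, gained or not, 56 of 111 and 44 of 56 lay there with full-length FOXA2, and 29 of 52 and 55 of 99 with CTD-deleted FOXA2.

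Both CTD-deleted libraries called 6 of the 19 regions gained with the full-length protein, against 11844 of 24999 over all regions so gained, and neither called 5, against 4546. Those 5 were the HOXC9 start, the HOXB5 start, a region 478 bp from the HOXB6 start (chr17:48603803-48604508), a region in HOXA9 440 bp from its start (chr7:27164272-27165097) and a region 15321 bp beyond HOXD13 (chr2:176076892-176077400). Among the 16 gained with CTD-deleted FOXA2, 4 were called in no full-length library. Of these, chr17:48536052-48536305 and chr17:48536838-48537527 lie 5041 and 5827 bp from the HOXB1 start, and chr7:27080713-27081347 lies in a flank of HOXA. The last, chr17:48472745-48473035, lies in a flank of HOXB, 57976 bp from the HOXB1 start. Full-length FOXA2 replicate 1 had a separate peak beside that last region, at chr17:48472445-48472644. Over all 24077 regions gained with CTD-deleted FOXA2, 5343 were called in neither full-length library. The difference between the constructs was not tested.

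Of the 6 regions called in all 4 construct libraries and in neither wild-type library of the set, 4 overlapped no peak in any list of the SOX2 set. Beside the LINC02086 region they were chr2:176007074-176007842, 84879 bp beyond HOXD13, chr12:53977349-53977997 in HOXC11, and chr12:53886906-53887479, 51352 bp beyond HOXC13. How many of all regions gained with both constructs overlapped no SOX2-set peak was not counted. Of all regions gained with CTD-deleted FOXA2, 26.4%, 30.4% and 31.8% overlapped a peak of the second wild type, SOX2 and the fusion. The HOXD region was the strongest gained with CTD-deleted FOXA2, at 5.26-fold in both libraries, with 3.88 and 7.50 for full-length FOXA2. The other 2 of the 6 were the HOXD8 start and chr7:27135911-27136578 in HOXA3. Of the 16 regions gained with CTD-deleted FOXA2, 8 overlapped a peak of the second wild type (50%, background 26.4%). The third strongest of them, chr7:27277540-27277997, 77449 bp beyond HOXA13, had folds of 3.91 and 6.25, and was called in all 3 lists of the SOX2 set.

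In the SOX2 set, SOX2 gained the HOXA9 start and the shared start of HOXC4, HOXC5 and HOXC6 (4 of 39 genes, background 7.79%), and lost HOXB7, HOXB9, HOXC13 and HOXD9 (background 5.41%). At HOXA9 the SOX2 peak (chr7:27165081-27165922) had a −log10 p of 12.7 and the fusion peak 7.41, while the wild-type entry there failed the limit at an IDR of 0.159. The HOXC4 call turned on the 500 bp window: the region chr12:54017324-54018944, 436 bp from the start, was called in the wild type at 28.9 and with SOX2 at 23.2. At HOXC13 the wild-type peak (chr12:53938123-53939806) had 29.6, and the SOX2 list had an entry that failed at an IDR of 0.524, with −log10 p values of 3.26 and 30.7 in its inputs. One SOX2 input was as high there as the wild type. The other 8 lists all called this start.

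SOX2 gained 12 of the 69 cluster regions of its set (17.4%, background 33.9%) and lost 14 (20.3%, background 17%). The share gained was below the background, with 1 list per group and no spread to set it against. Of the 12 gained, 9 (75%) had a wild-type entry that failed the IDR limit, against 37.4% of all regions gained with SOX2, and 1 lay within 500 bp of a HOX start. Of all regions gained with SOX2 3.24% were within 500 bp of any protein-coding start. The strongest gained region was chr2:176233660-176234706, 44992 bp beyond HOXD1, with a −log10 p of 17.9 for SOX2 and 17.6 for the fusion, no wild-type entry at any IDR and no peak in the FOXA2 set. Next came chr17:48603930-48604464 in HOXB6, 522 bp from its start, at 13.2, and the HOXA9 start. Beside HOXC13, the strongest lost regions were chr17:48536871-48537697, 5860 bp from HOXB1, and chr17:48646043-48647218 in LINC03057 and LINC02086, at wild-type values of 20.1 and 17.2. Of the 14 lost regions, 11 (78.6%) had a SOX2 entry that failed the limit (background 65.8%). With equal numbers of peaks 7 of 62 were gained (11.3%, background 27.5%) and 24 lost (38.7%, background 27.4%).

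The fusion gained the HOXA9 start (background 6.15%) and lost 3 starts (background 9.1%), among them HOXB5 and HOXD9. Over gene bodies plus 5 kb it gained 2 genes, HOXD11 and HOXD12 (background 7.85%), and lost 12 of 39 (background 6.44%), among them HOXA2, HOXB2, HOXB5, HOXB6, HOXC4, HOXC5, HOXC6, HOXC8, HOXC9, HOXC12 and HOXD10. With all entries kept whatever their IDR, 36 HOX genes had a fusion peak there, 35 a SOX2 peak and 35 a wild-type peak (background 91.3%, 90.2% and 88.8%), so the fusion was no longer lower. At the IDR limit SOX2 gained 0 genes (background 7.85%) and lost 3 (background 4.78%), HOXB2, HOXC13 and HOXD10. Both were set against 1 wild-type list. The 12 genes lost with the fusion share regions: the lost call at chr12:54017324-54018944 lay in HOXC4, HOXC5 and HOXC6 at once. It had 28.9 in the wild type, and a fusion entry that failed at an IDR of 0.341 with 10.7 and 2.71 in its inputs. The region had peaks in all 6 lists of the FOXA2 set.

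Of the 69 cluster regions the fusion gained 13 (18.8%, background 43.7%) and lost 18 (26.1%, background 17.1%). Of the 13 gained, 6 (46.2%) had a wild-type entry that failed the IDR limit (background 28.1%) and 1 lay within 500 bp of a HOX start. Of all regions gained with the fusion 2.01% were within 500 bp of any protein-coding start. Of the lost regions, 16 of the 18 (88.9%) had a fusion entry that failed the IDR limit (background 75%). When all entries were kept whatever their IDR, 31 of 125 were gained (24.8%, background 43.3%) and 17 lost (13.6%, background 14.1%). With equal numbers of peaks 7 of 62 were gained (11.3%, background 31.1%) and 30 lost (48.4%, background 31.1%). Beside the region beyond HOXD1, the strongest gained were chr7:27081986-27082505, in a flank of HOXA and called in no other list, at 11.2, and chr7:27135885-27136969 in HOXA3, at 11.1. The last was also gained with SOX2, at 11.95, and with both FOXA2 constructs. Among the 3 strongest lost, beside the HOXC4 region, was chr17:48472444-48473328, 57683 bp beyond HOXB1, at a wild-type value of 16.5.

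Relative to list length, the 4 clusters with their flanks held 8.73 ± 3.32 peaks per 10000 peaks of the list in the libraries labelled wild type (SD, n = 2), 8.28 ± 1.96 with full-length FOXA2 and 6.67 ± 0.102 with CTD-deleted FOXA2. The single libraries gave 11.1 and 6.38, 6.89 and 9.66, and 6.60 and 6.74, so the wild type overlapped both constructs. In the SOX2 set the values were 10.8 for the wild type, 7.47 for SOX2 and 6.09 for the fusion, from 52, 49 and 46 peaks. With equal numbers of peaks per list they were 10.8, 7.27 and 6.02. HOXB varied most, with 3.52 and 0.399 in the libraries labelled wild type, and HOXC was lower for SOX2 (0.914) and the fusion (0.662) than for their wild type (1.87). Regions called in every list made up 7 of 179 in the FOXA2 set (3.91%, background 3.15%) and 28 of 69 in the SOX2 set (40.6%, background 24.7%), and regions called in 1 list alone 116 of 179 (64.8%, background 69%) and 20 of 69 (29.0%, background 41.4%). The 7 included the starts of HOXA5, HOXC13 and HOXD1, a region 534 bp from the HOXC4 start, a region of HOXA3 (chr7:27150419-27151290) and a region 90005 bp beyond HOXD13.

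**Figure D5:**
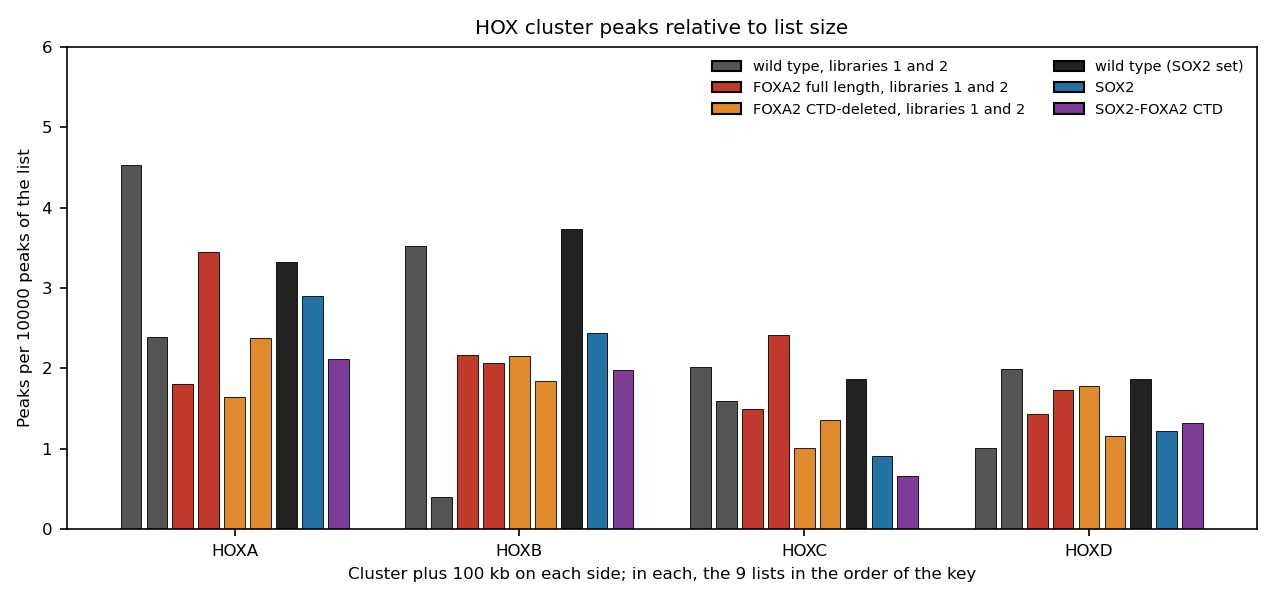
Peaks in each HOX cluster plus 100 kb on each side per 10000 peaks of the list (vertical axis), with 9 bars per cluster for the 9 lists in the order of the key. HOXB ranges from 0.399 in wild type replicate 2 to 3.74 in the wild type of the SOX2 set, and in all 4 clusters the SOX2 and fusion bars lie below that of their wild type.

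Some microRNAs of the clusters, which target many HOX genes, had no peak within 1 kb of their hairpins in any of the 9 lists. They were MIR10A and MIR196A1 in the HOXB cluster, MIR10B in HOXD, MIR196A2 and MIR615 in HOXC and MIR196B in HOXA. The share of other hairpins or genes without a peak within 1 kb was not counted. The mature sequences are shown to group them by seed (bases 2 to 8, capitals, from RefSeq).
miR-10a-5p: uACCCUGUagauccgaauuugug
miR-196a-5p: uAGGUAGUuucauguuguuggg
miR-196b-5p: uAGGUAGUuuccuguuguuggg
miR-7704: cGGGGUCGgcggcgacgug
The miR-196 pair shares the seed AGGUAGU across HOXA, HOXB and HOXC, and that of miR-10a-5p is ACCCUGU. MIR7704, whose hairpin (chr2:176188843-176188901) lies in the first part of HOXD1, had a peak within 1 kb in all 9 lists. Of the 20 noncoding genes listed for the clusters, 8 to 17 had a peak in the body plus 5 kb in a list of the FOXA2 set. Shares over all noncoding genes were not counted, and over protein-coding genes they were 48.6% to 89.5% in these lists. HOTAIR, a HOXC noncoding gene that acts with Polycomb, HOXA10-AS and MIR196B were gained with full-length FOXA2, and HOTAIR with CTD-deleted FOXA2. Of protein-coding genes 15.8% and 17% were gained with these constructs. MIR196B lies inside HOXA10-AS, so the gains of this pair come from the same peaks. Those peaks lay in the 5 kb on each side, and neither gene body had a peak in any of the 9 lists. HOTAIR, HOXA10-AS and MIR196B each had a peak in the second wild type too.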

How the data were processed

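ATAC-seq peak lists of U2OS cells were used as deposited, 1 per library in the FOXA2 set and 1 per group of 2 samples in the SOX2 set. Per the submitters' processing notes, FastQC 0.10.1, Trim Galore, Bowtie2 2.4.4, SAMtools 0.1.18, MACS2, deepTools 2.4.1 and build hg38 were used. Roles, thresholds and duplicate handling are not given in the sources used here. The authors' deposited fold enrichment is a ratio over background in its own library. The deposited −log10 p and −log10 q were the authors' too and depend on depth, which is unknown. The deposited score restates these values or the IDR and was used for the IDR limit only. The deposited −log10 p of each SOX2-set entry equalled the lower of its 2 inputs' values in 100% of entries (tolerance 0.001). It is assumed that a group's 2 samples were these inputs. The deposited summit position was not used in a result.

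Peaks on chromosomes 1 to 22 and X were kept, in the SOX2 set at a global IDR of at most 0.05, and merged within each set. A region, gene or start was called in a list by an overlap of at least 1 bp. Gained means called in all lists of a construct and in no wild-type list of its set, lost the opposite. Positions are 1-based on hg38. The reference was RefSeq on GRCh38.p14, with gene extents and promoter sequences, and 37 of the 39 starts were distinct. No genome sequence or exon map was used, so motifs were searched in promoters and not in regions as planned. With 2 libraries or 1 list per group no test was used to make calls, and spread between samples may be technical. All 39 genes entered the counts, and the values of 1 of them are not reported here. Given with values were starts called in all 9 lists or in none, or differing in all lists of both groups of a set, and the 3 strongest regions gained or lost per comparison. The members were picked by gene name, but earlier results of these data were known when they and the gene lists were chosen. The overlap and gain counts were tested on simulated peaks. Analyses ran in python 3.11.15 with numpy 2.4.6, pandas 2.3.3 and matplotlib 3.10.9. Alternatives were equal numbers of peaks, no flank, 50% overlap, a common threshold, other IDR limits, wider or narrower gene windows, batches, and leaving out each library.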

Additional observations from a re-analysis of the deposited data

How the results depend on the processing

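No paired analysis was possible because the results come from no test, and the SOX2 set has 1 list per group. With full-length FOXA2 the 19 gained cluster regions became 1 with equal numbers of peaks, 11 at the common threshold, 90 and 37 within the batches with and without mitochondrial peaks, and 24 to 84 leaving out a library (84 without full-length FOXA2 replicate 2, 30 without its replicate 1). The 0 lost became 1 with equal numbers, 1 within each batch and 0 to 1 leaving out a library (1 without wild type replicate 2). With CTD-deleted FOXA2 the 16 gained became 2 with equal numbers, 7 without flanks, 2 at the common threshold and 20 to 70 leaving out a library (70 without its replicate 1, 33 without its replicate 2). The 0 lost became 2, 1 at the common threshold, 1 in the batch with mitochondrial peaks and 0 to 3 leaving out a library (1 without wild type replicate 2, 3 without CTD-deleted FOXA2 replicate 2). For SOX2, equal numbers gave 7 gained and 24 lost, and the clusters without flanks 6 gained. For the fusion, equal numbers gave 7 and 30, no flanks 5 and 11, and all entries whatever their IDR 31 gained. Genes with a peak were 10 in the gene body alone for wild type replicate 1, 24 for full-length FOXA2 replicate 1, 14 for CTD-deleted FOXA2 replicate 1 and 21 for the second wild type. With equal numbers they were 9 and 19 for full-length FOXA2 and 9 and 11 for CTD-deleted FOXA2, and 36 for the fusion with all entries, where the second wild type and SOX2 each had 35. Starts called within 2 kb were 11 for wild type replicate 2 and 21 for CTD-deleted FOXA2 replicate 2. With equal numbers starts called were 4 for wild type replicate 2, 5 and 9 for full-length FOXA2, 2 and 6 for CTD-deleted FOXA2 and 9 for the fusion. Peaks per 10000 without flanks were 5.53 for full-length FOXA2, 3.71 for CTD-deleted FOXA2, 7.27 for the second wild type, 4.57 for SOX2 and 3.71 for the fusion, and with equal numbers 6.55 for CTD-deleted FOXA2, 7.27 for SOX2 and 6.02 for the fusion. By covered length they were 7.02 for CTD-deleted FOXA2, 12.5 for the second wild type, 8.67 for SOX2 and 7.48 for the fusion. Apart from fewer peaks or a smaller window where the setting removes them, the cause was not tested. Depth is unknown, so no call carries an interval, and a missing call cannot be told from a shallow library.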

Other observations

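The TALE cofactors that bind DNA together with HOX proteins had peaks in the body plus 5 kb in 3 to 8 of 9 genes in the FOXA2 set and in 6 to 7 in the SOX2 set. Over all protein-coding genes the share with a peak there was 48.6% to 51.3% in the libraries labelled wild type. It was 73.7% to 89.5% in the FOXA2 construct libraries and 75.5% to 78.6% in the SOX2 set. The MEIS1 start was called in all 9 lists, and PBX2 had no peak in any. MEIS2 was gained with both FOXA2 constructs and PBX4 with CTD-deleted FOXA2, against 15.8% and 17% of all genes. Of 13 regulators of HOX clusters, BMI1, a Polycomb gene, and KMT2A, which encodes the methyltransferase that keeps HOX genes active, were gained with both FOXA2 constructs, and EZH2, the Polycomb methyltransferase, with CTD-deleted FOXA2. The shares over all genes were again 15.8% and 17%. The 6 ParaHox genes, relatives of the HOX genes outside the clusters, had peaks in 0 and 2 cases in the libraries labelled wild type, 4 and 2 with full-length FOXA2, 2 and 6 with CTD-deleted FOXA2, and 5, 4 and 4 in the SOX2 set. The shares of all genes given above rose between these lists too, and a difference from them was not tested. PDX1, a pancreas gene, was gained with full-length FOXA2 (background 15.8%). The second wild type had a peak in the same window of MEIS2, PBX4, BMI1, KMT2A, EZH2 and PDX1, all named here as gained.

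Of 17 neighbours of the clusters, EVX2, SKAP1 and PRAC2 were gained with both FOXA2 constructs, against 15.8% and 17% of all genes. The second wild type had a peak at EVX2, SKAP1 and PRAC2 too. No neighbour was gained or lost in the SOX2 set. There 7.85% of all genes were gained with each construct, and 4.78% and 6.44% were lost with SOX2 and the fusion. Among marker lists of other cell types, the 3 epithelial genes had no peak in the libraries labelled wild type and 1 to 3 in the other lists, the 3 blood genes 1 to 3 in every list, and both endothelial genes 1 to 2. The share of all genes with a peak in that window was 48.6% to 51.3% in the libraries labelled wild type. It was 73.7% to 89.5% in the other lists. Of the 2 hepatocyte genes APOA1 was gained with both FOXA2 constructs and ALB with both SOX2 constructs, and the 2 pluripotency genes had 0 to 1. Other marker lists had gains too. EPCAM was gained with both FOXA2 constructs, CDH1 and ALPL with CTD-deleted FOXA2, and ESRP1, COL1A2 and TWIST1 with both SOX2 constructs. The fusion lost 1 osteoblast or mesenchymal marker and 1 blood gene. APOA1, EPCAM, CDH1 and ALPL had a peak in the second wild type as well. These lists were described by counts alone, and their part in the HOX calls was not tested.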
